A study of Mus musculus with 8 samples.

Results

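The genes described are 10 members of the RGS family, the regulators of G-protein signalling, measured in primary mouse hepatocytes from p16 knockout and p16 wild type mice. They are Rgs1, Rgs2, Rgs3, Rgs4, Rgs5, Rgs10, Rgs12, Rgs14, Rgs16 and Rgs18, and were taken from 22180 genes with a row in the array table. A row counted for a member when the platform annotation gave it that symbol alone, and where a gene had several rows the one with the highest mean over the 8 arrays was kept. The family was picked with the knockout against wild type differences of these arrays in view, in which Rgs2 and Rgs5 moved in opposite ways, so the differences of the 10 genes between the groups are given as a description and carry no test. Of the 10, 8 had a mean above the filter on dim genes (3.32 on the log2 scale, the 40th percentile of all row means) and entered the fit across 15380 genes, while Rgs1 and Rgs18 lay below it.

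The knockout group held 4 samples of p16-/- hepatocytes and the wild type group 4 samples of p16+/+ hepatocytes from littermates, each on 1 array. Hepatocytes, the parenchymal cells of the liver, were freed by collagenase perfusion and attached over 16 h in Williams E medium that held insulin (100 nM), dexamethasone (25 nM) and 10% serum. Both groups then spent 8 h in medium with 1 mM glucose and 0.1% albumin, and RNA was taken at 24 h. The labels call the samples biological replicates without saying whether each came from its own animal, so errors measure the spread between these samples, and the labels do not state the strain, age or sex of the mice or how the p16 allele was made. All values are log2 expression values as deposited.

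An RGS protein binds the active, GTP-loaded alpha subunit of a heterotrimeric G protein and speeds the hydrolysis of its GTP, which ends the signal of the receptor that switched it on. In the liver, receptors coupled to G proteins of several classes carry the signals of glucagon, adrenaline, vasopressin and many local mediators. Where a class is named below for an RGS gene, it is Gi or Gq. Rgs1, Rgs2, Rgs3, Rgs4, Rgs5, Rgs16 and Rgs18 belong to a subfamily of mostly small proteins with little beyond the RGS domain, and Rgs10, Rgs12 and Rgs14 belong to another, in which Rgs12 and Rgs14 are large scaffolds that also bind Ras proteins.

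The promoters of the 4 members with the largest differences between the groups are shown because 2 of these genes were higher and 2 lower in knockout cells. Each is the 250 bases before the annotated start of the gene, from RefSeq in build GRCm38.p6, read 5′ to 3′ on the gene's strand. Capitals mark the CCAAT box (CCAAT or its reverse complement ATTGG), the core of the cAMP response element (TGACG or CGTCA) and the TATA box (TATAAA on the gene's strand). Rgs2 lies on the minus strand (chr1:144004150-144004399), Rgs16 on the plus strand (chr1:153740103-153740352), Rgs5 on the plus strand (chr1:169655251-169655500) and Rgs4 on the minus strand (chr1:169747643-169747892).
Rgs2: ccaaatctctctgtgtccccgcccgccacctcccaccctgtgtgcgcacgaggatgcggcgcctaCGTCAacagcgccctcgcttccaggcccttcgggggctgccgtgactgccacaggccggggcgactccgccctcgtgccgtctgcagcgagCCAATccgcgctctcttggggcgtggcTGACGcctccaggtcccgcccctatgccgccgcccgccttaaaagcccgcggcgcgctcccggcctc
Rgs16: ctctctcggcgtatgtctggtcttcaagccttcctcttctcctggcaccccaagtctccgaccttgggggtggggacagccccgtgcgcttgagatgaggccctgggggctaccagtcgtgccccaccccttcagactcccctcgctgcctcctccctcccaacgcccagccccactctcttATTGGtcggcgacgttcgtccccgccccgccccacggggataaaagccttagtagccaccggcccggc
Rgs5: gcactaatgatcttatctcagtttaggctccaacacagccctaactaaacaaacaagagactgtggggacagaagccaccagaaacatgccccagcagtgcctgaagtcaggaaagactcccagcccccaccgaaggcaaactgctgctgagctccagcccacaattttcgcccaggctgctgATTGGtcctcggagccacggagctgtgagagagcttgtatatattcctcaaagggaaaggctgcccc
Rgs4: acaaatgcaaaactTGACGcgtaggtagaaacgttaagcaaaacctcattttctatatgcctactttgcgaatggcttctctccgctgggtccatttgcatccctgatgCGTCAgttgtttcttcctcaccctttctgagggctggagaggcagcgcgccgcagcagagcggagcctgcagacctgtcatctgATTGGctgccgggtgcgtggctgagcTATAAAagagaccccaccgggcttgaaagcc

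Each of these windows held 1 CCAAT box, beginning 94 bases before the start in Rgs2, 68 in Rgs16, 67 in Rgs5 and 57 in Rgs4. A CCAAT box on either strand was present in 33.8% of the 32851 windows of this length, and in 4 of the 9 windows found for 7 members, Rgs1, Rgs14 and Rgs18 having no entry. Rgs2 and Rgs4 each held 2 cores of the cAMP response element, at 185 and 67 bases before the start in Rgs2 and at 236 and 141 in Rgs4, against a core in 17.8% of all windows. The full element (TGACGTCA, in 1.55% of windows), the E-box CACGTG (6.02%) and the E2F-type motif TTTNNCGC on either strand (4.28%) were found in 0 of the 9 windows. Rgs4 had a TATA box 31 bases before its start, and 7.59% of windows hold one on the gene's strand. The GC box (GGGCGG or CCGCCC, in 32.7% of windows) occurred 4 times in Rgs2 and 2 times, overlapping by 1 base, in Rgs16. The windows of Rgs2 and Rgs16 had 72.4% and 66.4% GC. Those of Rgs5 and Rgs4 had 53.6% each, close to the median of 52.4% over all windows. GC shares of the other members were not compared, so nothing is read from these about the direction of the differences. A match of letters describes the sequence and does not show that a factor binds there.

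Array medians lay between 3.76 and 3.88 in both groups together. Knockout replicate 4 lay apart from the other arrays on the next principal component after the one that separates the groups (17.9% of the variance, at -25.2 against -8.91 to 14.6). Cdkn2a, the gene of p16, had 4.28, 4.66, 4.27 and 4.91 in knockout and 4.16, 4.79, 4.48 and 4.68 in wild type cells, and the groups overlapped. Which part of the gene its row measures is not given, so this checks no label. Of all genes tested, 2119 passed an adjusted p of 0.05 in limma, 1080 of them higher and 1039 lower in the knockout.

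Among the members, Rgs2 and Rgs16 were higher and Rgs5, Rgs4 and Rgs3 lower in knockout hepatocytes, in each case without overlap of the groups. Rgs10, Rgs12 and Rgs14 differed by 0.13 or less with overlapping groups. These 5 of 8 members in the fit were past the threshold of the fit, 2 higher and 3 lower, where 13.8% of all genes were (7.02% higher and 6.76% lower). Groups did not overlap for the same 5 members, and for 20.2% of all genes (9.13% higher and 11.1% lower). Since the family was picked on this contrast, nothing is read from these shares. Without knockout replicate 4 the differences of Rgs2, Rgs5 and Rgs3 were 2.08, -1.67 and -0.45, close to those with all arrays. The median difference of the 8 members was 0.11, against -0.02 over all genes tested.

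**Figure D1:**
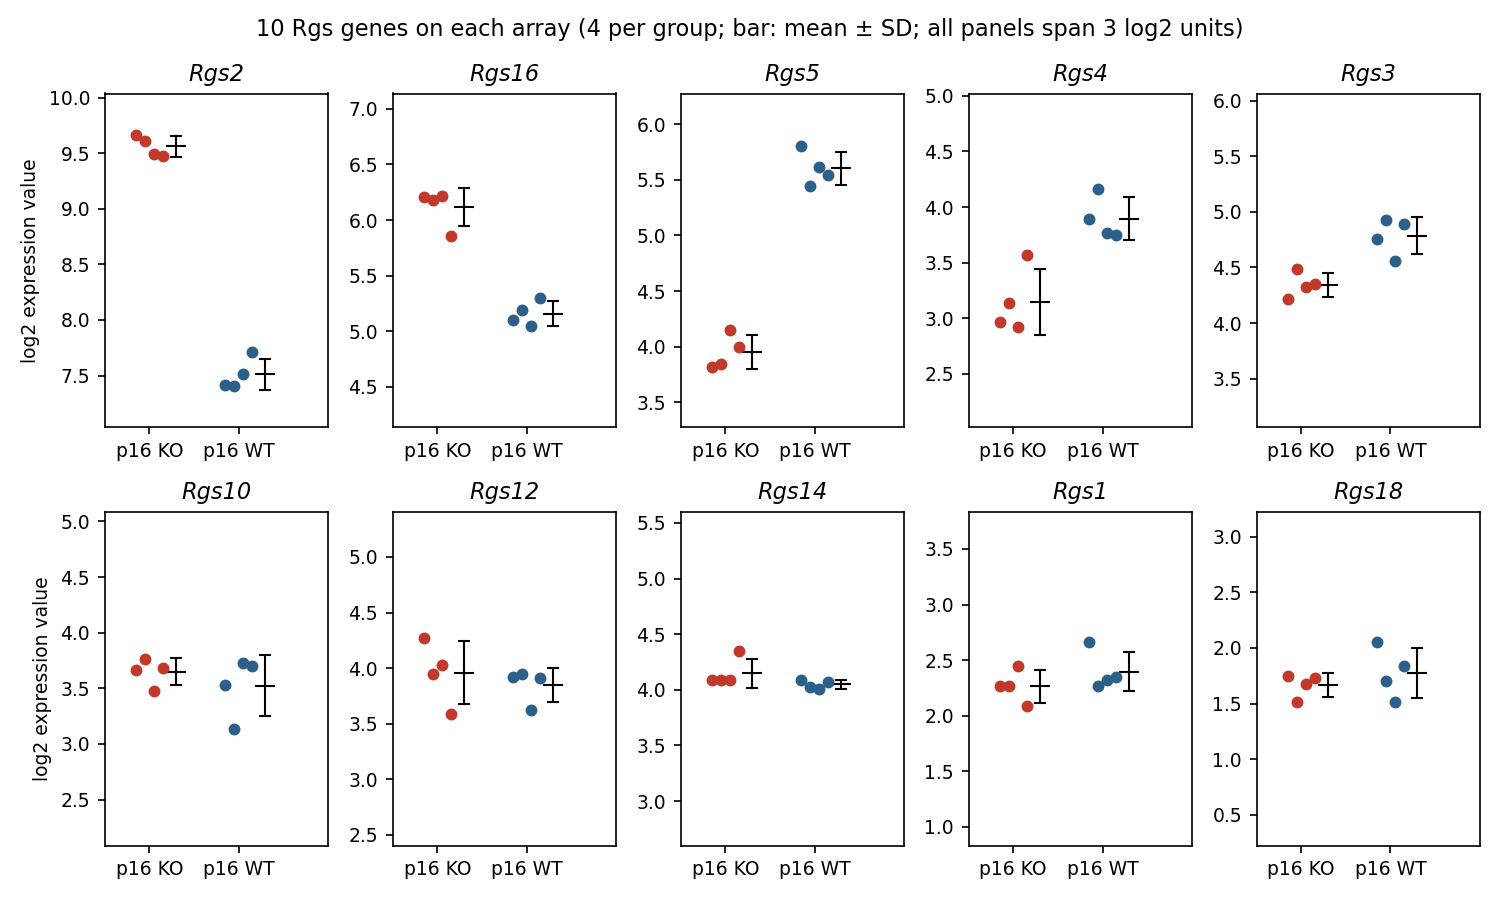
Log2 expression values (vertical axis) of the 10 Rgs genes on each of the 4 p16 knockout arrays (red, left) and 4 p16 wild type arrays (blue, right), with the mean and SD of each group beside the points. Each panel spans 3 log2 units around its own centre, and the groups stand apart for Rgs2, Rgs16, Rgs5, Rgs4 and Rgs3.

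Rgs2, which acts mainly on the Gq class of alpha subunits and is known as a gene quickly induced by many hormones, including those that raise cAMP, had the largest difference of the family. It had 9.66, 9.61, 9.49 and 9.47 on the knockout arrays, against 7.42, 7.41, 7.52 and 7.71 on the wild type arrays. All 4 knockout values lay above all wild type values, with a gap between the groups far wider than the spread inside either. The means were 9.56 ± 0.09 in knockout and 7.51 ± 0.14 in wild type cells (SD, n = 4 each), a difference of 2.05 (SE 0.10, 95% interval 1.83 to 2.26), or 4.13-fold. A dimmer row of Rgs2, whose mean of 2.98 lay below the filter, had 3.32, 3.61, 3.25 and 3.00 in knockout and 2.90, 2.47, 2.55 and 2.76 in wild type cells. Its groups did not overlap either, with a smaller difference of 0.62, and the mean of both rows differed by 1.34.

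Rgs16, a small regulator of Gi and Gq proteins whose transcript in mouse liver is known to follow feeding and fasting, was the other member higher in the knockout. It had 6.21, 6.18, 6.22 and 5.86 in knockout cells, against 5.10, 5.19, 5.05 and 5.30 in wild type cells. Knockout replicate 4 was the lowest of its group and still above every wild type array. The means were 6.12 ± 0.17 in knockout and 5.16 ± 0.11 in wild type cells (SD, n = 4 each), a difference of 0.96 (SE 0.11, 95% interval 0.72 to 1.19), or 1.94-fold, and without knockout replicate 4 the difference was 1.04.

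On the arrays with higher Rgs2 and Rgs16, markers of hepatocytes were higher too. Of 18 tested hepatocyte markers, 14 rose and none fell (limma, adjusted p under 0.05; 16 had an unadjusted p under 0.05), with a median difference of 0.62. The mean level of the list ran from 10.4 to 10.5 over the knockout arrays and from 9.56 to 9.75 over the wild type arrays. Arg1, the urea cycle enzyme arginase, rose by 2.69 (SE 0.18), the asialoglycoprotein receptor gene Asgr1 by 1.39 (SE 0.10) and the urea cycle gene Cps1 by 1.32 (SE 0.10). Alb, the gene of albumin and a defining hepatocyte marker, had 13.6 ± 0.01 in knockout and 13.5 ± 0.03 in wild type cells (SD, n = 4 each), a difference of 0.03 (adjusted p = 0.850) that turned to -0.01 under cyclic loess. All 18 measured hepatocyte markers lay above the filter, and 77.8% of them were called, against 13.8% of all genes. The part of cell composition in the Rgs2 and Rgs16 values was not tested.

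Rgs5, a regulator of Gi and Gq proteins widely used as a marker of pericytes and vascular smooth muscle, had the largest difference among members lower in the knockout. It had 3.82, 3.84, 4.15 and 3.99 on the knockout arrays, against 5.81, 5.45, 5.61 and 5.54 on the wild type arrays. The 2 groups were separated by more than a full log2 unit. The means were 3.95 ± 0.15 in knockout and 5.60 ± 0.15 in wild type cells (SD, n = 4 each), a difference of -1.65 (SE 0.11, 95% interval -1.89 to -1.41), or 3.14-fold lower. The dimmer row of Rgs5, with a mean of 3.10 below the filter, had 2.50, 2.95, 2.64 and 2.73 in knockout and 3.52, 3.63, 3.72 and 3.10 in wild type cells. It also separated the groups, by a difference of -0.79, and the mean of both rows differed by -1.22.

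Rgs4, which acts on Gi and Gq proteins and is best known from brain and heart, had 2.97, 3.14, 2.92 and 3.57 in knockout cells, against 3.90, 4.17, 3.76 and 3.75 in wild type cells. Knockout replicate 4 came closest to the wild type arrays, and the groups did not overlap. The difference of means was -0.75 (SE 0.15, 95% interval -1.08 to -0.42), from 3.15 ± 0.29 in knockout and 3.89 ± 0.19 in wild type cells (SD, n = 4 each), and -0.89 without knockout replicate 4. The knockout mean lay below the filter of 3.32, so Rgs4 entered the fit through its wild type values.

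Rgs3, a larger member of the same subfamily made in several isoforms, had 4.21, 4.48, 4.32 and 4.35 in knockout cells, against 4.76, 4.93, 4.56 and 4.89 in wild type cells. The highest knockout value, of replicate 2, lay just under the lowest wild type value, of replicate 3. The difference was -0.44 (SE 0.11, 95% interval -0.68 to -0.21), from means of 4.34 ± 0.11 in knockout and 4.79 ± 0.17 in wild type cells (SD, n = 4 each). It was -0.40 without knockout replicate 1 and -0.40 without wild type replicate 2, and in each of those fits Rgs3 was no longer past the threshold.

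Markers of the cells in which Rgs5 is best known did not all move one way on these arrays. Of 15 tested markers of mural cells, the pericytes and smooth muscle cells of vessel walls, 3 fell and 1 rose, with a median difference of 0.02, and the mean of the list ran from 5.01 to 5.15 over the knockout arrays and from 5.02 to 5.20 over the wild type arrays. The falls were Kcnj8 (-0.91, SE 0.14), the pore subunit of a potassium channel of pericytes, its partner subunit Abcc9 (-0.80, SE 0.15), named after its value was seen, and the adhesion molecule gene Mcam (-0.49, SE 0.08). Ndufa4l2, a hypoxia-inducible mitochondrial gene that pericytes also express, rose by 1.15 (SE 0.16). Its means of 9.51 in knockout and 8.36 in wild type cells lay far above those of the list, and which cells gave this signal was not tested. All 15 mural markers lay above the filter, and 26.7% of them were called, against 13.8% of all genes. Of 18 markers of stellate cells, the vitamin A storing pericytes of the liver, 5 fell and 1 rose (33.3% called). Dcn, the gene of the proteoglycan decorin (-2.13, SE 0.16), Lrat, which makes the stored retinyl esters (-1.47, SE 0.18), and Ecm1 (-0.95, SE 0.11) fell, while Reln, an extracellular glycoprotein gene, rose by 0.99 (SE 0.13). The mean of the stellate list ran from 4.17 to 4.34 over the knockout arrays and from 4.65 to 4.74 over the wild type arrays. Reln had means of 7.36 in knockout and 6.37 in wild type cells, above the level of this list. Hgf, another of the falls, named after its value was seen, had a knockout mean of 2.97, below the filter. It entered the fit through its wild type values (mean 3.78).

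Endothelial and macrophage markers were lower on the same knockout arrays as Rgs5 and Rgs4. Of 20 tested markers of sinusoidal endothelial cells 19 fell and none rose, with a median difference of -1.02 and list means of 4.51 to 4.69 over the knockout arrays and 5.58 to 5.76 over the wild type arrays. Among the falls were those of the endothelial cadherin gene Cdh5 (-2.03, SE 0.09), the hyaluronan receptor gene Lyve1 (-1.72, SE 0.12) and the endoglin gene Eng (-1.56, SE 0.10). Of 16 tested markers of Kupffer cells and macrophages 13 fell and 1 rose, with a median difference of -0.85 and list means of 4.42 to 4.49 over the knockout and 5.22 to 5.32 over the wild type arrays. The lysosomal protease gene Ctss (-1.37, SE 0.12), oxidase gene Cybb (-1.20, SE 0.15) and Fc receptor chain gene Fcer1g (-0.91, SE 0.11) fell. Cd68 rose by 0.58 (SE 0.13), with means of 11.45 in knockout and 10.87 in wild type cells, far above the list means. Of the tested endothelial and macrophage markers 95% and 87.5% were called, against 13.8% of all genes. Clec4g, Cd5l and Vsig4, named after their values were seen, were among the falls. Their knockout means (3.28, 3.13 and 3.00) lay below the filter, so they entered the fit through their wild type values. In RNA of whole cultures fewer cells of a type and less RNA per cell cannot be told apart, and the part of either in the values of Rgs5, Rgs4 and Rgs3 was not tested.

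**Figure D2:**
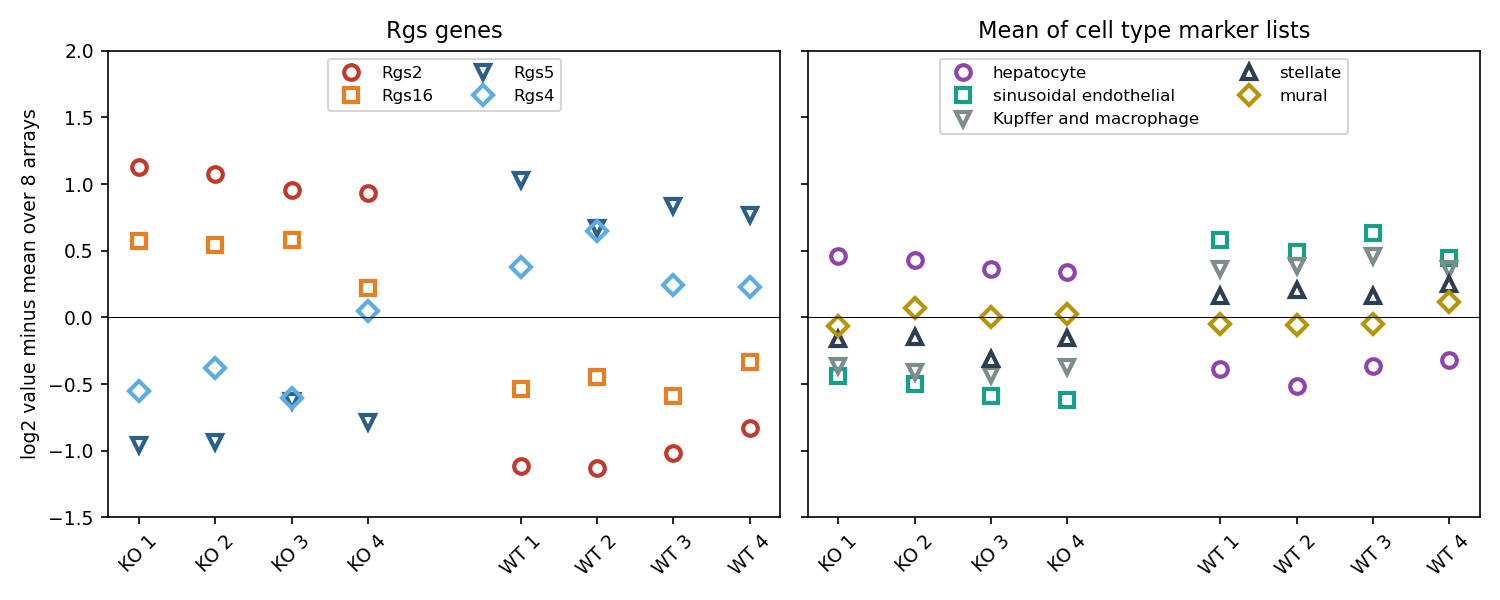
Log2 values minus their mean over the 8 arrays (vertical axis) for Rgs2, Rgs16, Rgs5 and Rgs4 (left) and for the means of 5 marker lists (right), with knockout arrays at the left of each panel and wild type arrays at the right. Rgs2, Rgs16 and the hepatocyte list are higher on the knockout arrays, Rgs5, Rgs4 and the endothelial, macrophage and stellate lists are lower there, and the mural list overlaps between the groups.

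The remaining members in the fit differed little between the groups. Rgs10, a regulator of Gi proteins known from leukocytes and platelets, had 3.67, 3.76, 3.48 and 3.69 in knockout and 3.53, 3.13, 3.72 and 3.70 in wild type cells. Its groups overlapped, with a difference of 0.13 (95% interval -0.17 to 0.42). Rgs12, one of the scaffolds, had 4.28, 3.95, 4.03 and 3.59 in knockout and 3.92, 3.94, 3.62 and 3.92 in wild type cells, where knockout replicates 1 and 4 spanned all other arrays. Its difference was 0.11 (95% interval -0.20 to 0.42), and 0.23 without knockout replicate 4. Rgs14, the other scaffold, had 4.08, 4.08, 4.08 and 4.35 in knockout and 4.08, 4.03, 4.01 and 4.07 in wild type cells, a difference of 0.10 (95% interval -0.10 to 0.30). Its interval holds changes of up to 0.30, so a small difference of Rgs14 was not detectable with 4 arrays a group. The value of 4.08 was the same to all deposited digits on 4 arrays, 3 knockout and 1 wild type, and values shared by 4 or more arrays occurred in 1.09% of the genes tested.

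Rgs1 and Rgs18, members known from lymphocytes and from platelets, were dim in every sample. Rgs1 had 2.26, 2.26, 2.45 and 2.09 in knockout and 2.66, 2.26, 2.32 and 2.35 in wild type cells. Rgs18 had 1.75, 1.52, 1.68 and 1.73 in knockout and 2.06, 1.70, 1.52 and 1.84 in wild type cells. Both genes overlapped between the groups, with differences of -0.13 and -0.11, and both had a value repeated on several arrays. The lymphocyte markers Ptprc, Cd4, Cd79a and Ms4a1 were below the filter as well, as were 10 of 17 lymphocyte markers with a row. Of the 7 tested ones 1 fell, Cxcr4, a chemokine receptor gene that other cells express too (-0.62, SE 0.10). That is 14.3% of the tested ones, against 13.8% of all genes called. The platelet markers Pf4 and Ppbp were below the filter. Of 7 tested platelet markers 2 fell (28.6% called), the integrin gene Itgb3 (-0.86, SE 0.13) and Clec1b (-0.95, SE 0.22). The other 5, Itga2b, Gp5, Gp6, Gp9 and Treml1, were not called, with differences of -0.09 to 0.23.

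Other genes listed with the family, 14 with a row and 10 of them tested, were examined for the same contrast. Among them are Rgs7bp and Rgs9bp, genes of proteins that bind RGS proteins and are not members of the family. Rgs19, a regulator of Gi proteins, fell in the knockout (limma, adjusted p = 0.0128). It had means of 5.21 ± 0.20 in knockout and 5.79 ± 0.21 in wild type cells (SD, n = 4 each), a difference of -0.58 (SE 0.13) without overlap of the groups. The other 9 did not pass, with differences of -0.15 (Rgs9bp) to 0.29, and 3 of the 10 had an unadjusted p under 0.05. Rgs9 had the highest of them at 0.29 (SE 0.11, adjusted p = 0.120). Without knockout replicate 4 Rgs7, named after its value was seen, joined the calls as higher in the knockout, which brought the count to 2, while with all arrays its difference was 0.24 (SE 0.13, adjusted p = 0.249). Rgs13, Rgs21, Rgsl1 and Rgs7bp lay below the filter. The median difference of the 10 tested genes was 0.10, with 1 of 10 called against 13.8% of all genes.

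**Figure D3:**
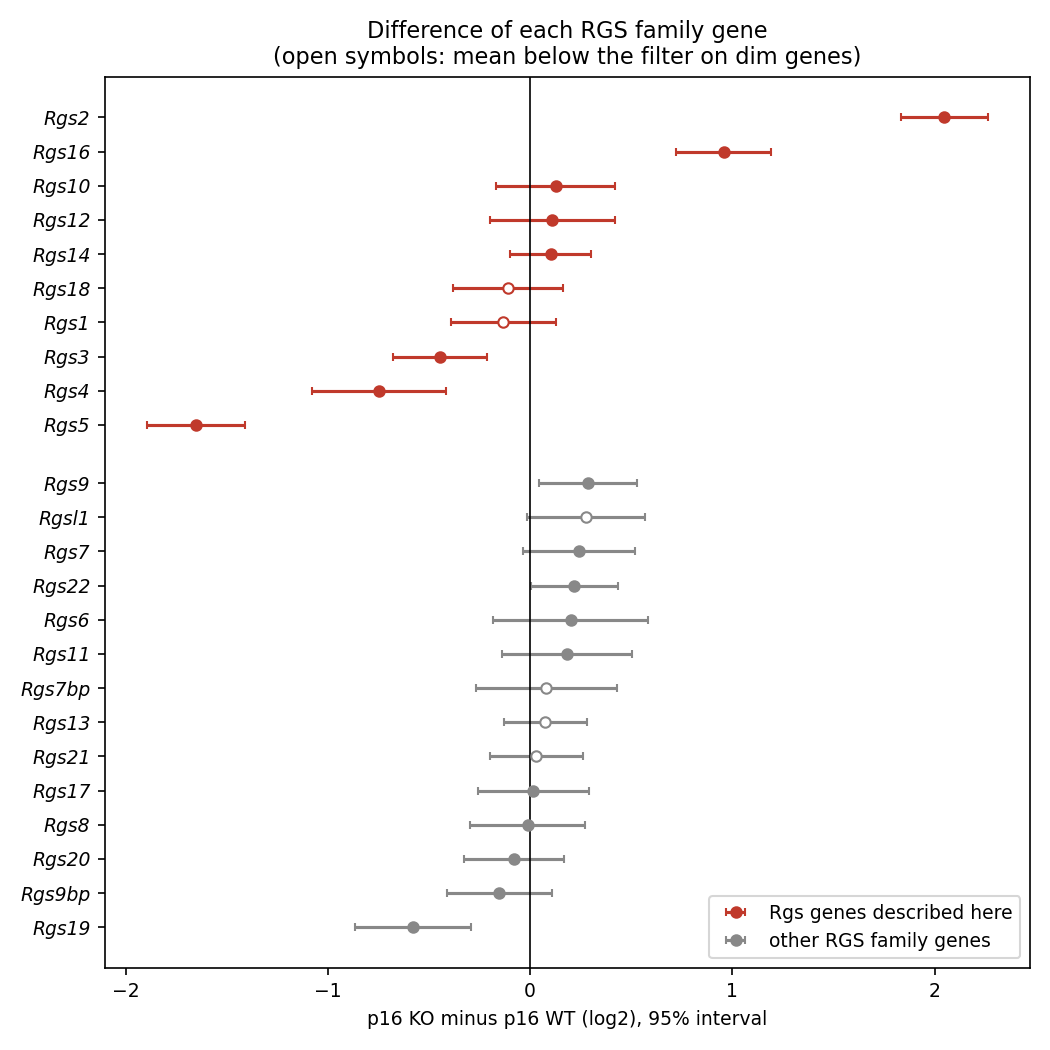
Difference between p16 knockout and p16 wild type means on the log2 scale (horizontal axis, bars are 95% intervals from the fit). Shown are the 10 Rgs genes described here (red) and 14 other genes listed with the RGS family, Rgs7bp and Rgs9bp among them (grey). Rgs2 at 2.05 and Rgs5 at -1.65 lie at the ends, Rgs19 at -0.58 is the lowest of the other genes, and open symbols mark genes whose mean lay below the filter.

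Genes that share an RGS-like domain, or the GoLoco motif that holds alpha subunits in their GDP form, gave 1 call among 13 tested. The call was downward, and the count was 0 when any 1 array except knockout replicate 3 was left out. The share called was 7.69%, against 13.8% of all genes.

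Genes of the G protein subunits, both the alpha subunits and their beta and gamma partners, gave no call, where 13.8% of all genes were called. Of 25 tested alpha, beta and gamma subunits 0 passed limma's adjusted p of 0.05, 4 had an unadjusted p under 0.05, and the median difference was -0.10. Gna12 and Gnb1, named after their values were seen, came nearest, with differences of -0.31 (SE 0.09, adjusted p = 0.0508) and -0.29 (SE 0.09, adjusted p = 0.0563). Other settings called up to 3 subunits, all lower in the knockout, and Gna12 alone was called without wild type replicate 2. Of 26 tested effectors, the adenylyl cyclases, phospholipases C, IP3 receptors, kinases and phosphodiesterases behind the G proteins, 1 rose and 1 fell. They were the cyclase gene Adcy5 (0.50, SE 0.14, adjusted p = 0.0315) and the cAMP phosphodiesterase gene Pde4b (-0.38, SE 0.11, adjusted p = 0.0437). Both had overlapping groups, and the calls ended under 7 and 11 of the 16 alternatives in which they were tested, with adjusted p up to 0.0828 for Adcy5 and 0.124 for Pde4b. The count was 0 without knockout replicate 4 or without wild type replicate 1, 2 or 3, and 1 without knockout replicate 1, 2 or 3. With all arrays 7.69% of the tested effectors were called, against 13.8% of all genes.

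Receptors coupled to G proteins moved both ways. Of 39 tested receptors of hormones and local mediators 4 rose and 4 fell (20.5% called against 13.8% of all genes), with a median difference of 0.04. Avpr1a, the liver's vasopressin receptor and a Gq-coupled one, rose by 1.60 (SE 0.13, limma adjusted p = 1.33e-05), with 7.09 ± 0.22 in knockout and 5.49 ± 0.17 in wild type cells (SD, n = 4 each). The other rises, named after their values were seen, were the glucagon receptor gene Gcgr (0.61, SE 0.10), the fatty acid receptor gene Ffar4 (0.54, SE 0.15) and the adrenergic receptor gene Adra1b (0.34, SE 0.10). The endothelin receptor gene Ednrb fell by 1.49 (SE 0.10), Calcrl, whose protein binds adrenomedullin and related peptides, by 1.44 (SE 0.11), and S1pr1, a sphingosine 1-phosphate receptor gene, by 1.18 (SE 0.12). These 3 are known from endothelial cells, whose markers were lower on the same arrays by a median of 1.02, and the part of those cells in their values was not tested. S1pr2, named after its value was seen, fell by 0.30 (SE 0.09). Without knockout replicate 1 or 3, without wild type replicate 1 or 2, or unfiltered, 5 receptors were called, 2 higher and 3 lower. Under cyclic loess and with array weights 11 were called, 6 higher and 5 lower. With the filter at the 60th percentile 10 of 19 were called. The calls among all genes also rose in these settings, to 2513, 2587 and 2456. The calls of Ffar4, Adra1b and S1pr2 ended under 6, 10 and 11 of 17 alternatives.

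Receptor kinases and arrestins gave 2 calls among 10 tested, both upward and both of arrestin-domain genes (20% called against 13.8% of all genes). No tested receptor kinase was called, and Grk2 had no row. The arrestin genes Arrb1 (0.03, SE 0.11) and Arrb2 (0.07, SE 0.10) were not called either. Arrdc3, an arrestin-domain adaptor of adrenergic receptors, rose by 0.86 (SE 0.12, limma adjusted p = 9.27e-04) and Arrdc4 by 0.34 (SE 0.09, adjusted p = 0.0300). The Arrdc4 call ended under 8 of 17 alternatives, among them leaving out knockout replicate 1 or 3 or wild type replicate 1, 3 or 4, with adjusted p up to 0.0797.

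**Figure D4:**
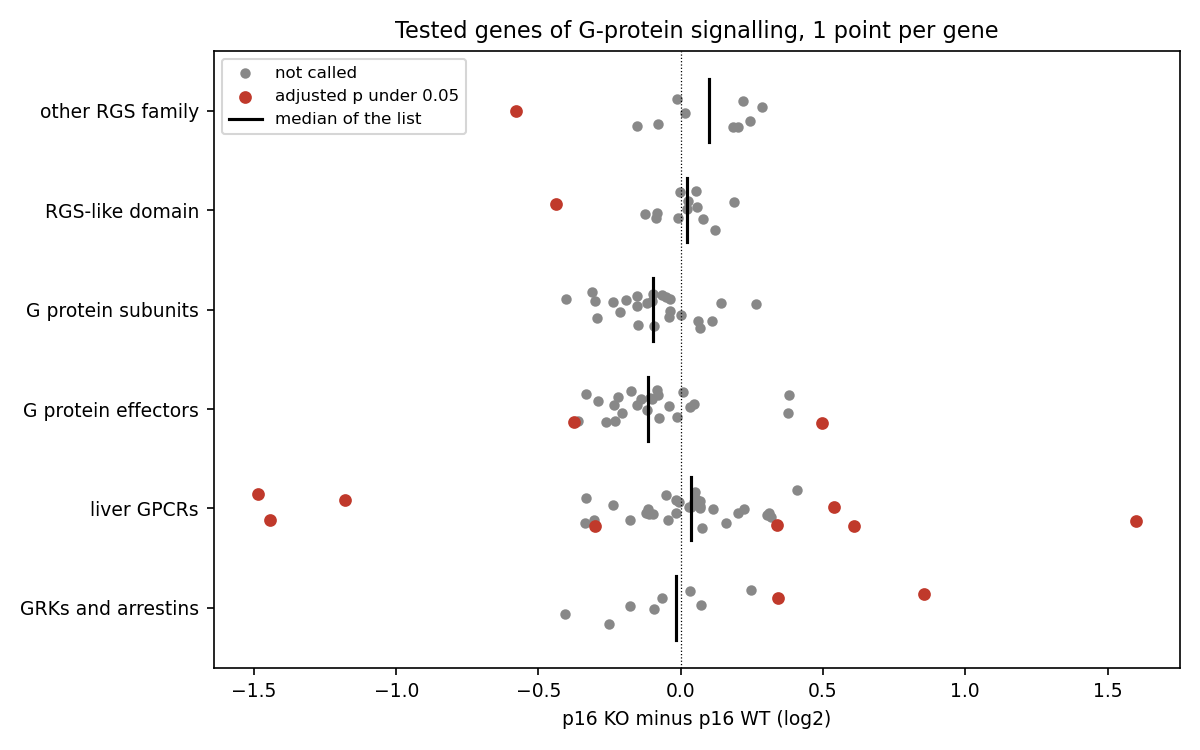
Difference between p16 knockout and p16 wild type means on the log2 scale (horizontal axis) for every tested gene of 6 lists around G-protein signalling, with called genes in red and the median of each list as a black bar. The receptor list spreads from -1.49 to 1.60, and the subunits lie between -0.40 and 0.26 with no call.

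In RefSeq (GRCm38.p6) 6 of the 10 members lie on chromosome 1. Rgs2, Rgs13, Rgs1, Rgs21 and Rgs18 follow each other there as neighbouring protein-coding genes, and of these 5 only Rgs2 lay above the filter. Uchl5, the neighbour on the other side of Rgs2, had a difference of -0.08 (SE 0.10). Rgs5 and Rgs4 are also next to each other and were both lower in the knockout. Rgs16 is preceded by Rgs8, a related regulator best known from brain, which had a difference of -0.01 (SE 0.13). Of 44 genes within 3 places of a member, members left out, 32 were tested, of which 2 were called higher and 3 lower, 15.6% against 13.8% of all genes. They were Alad (0.36, SE 0.09) and Hgfac (0.49, SE 0.10) among the rises and Dhx9 (-0.48, SE 0.11), Ptgs2 (-0.61, SE 0.15) and Zfp618 (-0.52, SE 0.15) among the falls, all named after their values were seen. The call of Alad ended under 6 of 17 alternatives, and those of Zfp618 and Ptgs2, both with overlapping groups, under 8 and 4 of 16, with adjusted p up to 0.0753, 0.120 and 0.0713 in limma. Rgs members on other chromosomes are Rgs3 on chromosome 4, Rgs12 on 5, Rgs10 on 7 and Rgs14 on 13.

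The genes whose profiles over the 8 arrays came nearest to Rgs2 and Rgs5 were found by the root mean square difference between values centred on each gene's mean, a measure that includes the difference between the groups. For Rgs2 they were Gnmt, the glycine methyltransferase of hepatocytes (0.093), the elongase gene Elovl3 (0.137), Acmsd of tryptophan breakdown (0.139), the fatty acid binding protein gene Fabp1 (0.146) and Rrm2, the small subunit gene of ribonucleotide reductase (0.159). Their differences between the groups ran from 1.94 to 2.18, next to 2.05 for Rgs2. For Rgs5 the nearest were Eng (0.127), Fam171b (0.148), the chemokine gene Ccl2 (0.162), the adhesion receptor gene Adgrf5 (0.164) and Ednrb (0.171), with differences from -1.76 to -1.47, next to -1.65 for Rgs5. Eng and Ednrb also stand in the endothelial and receptor lists above.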

How the data were processed

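Biotin-labelled total RNA of 8 hepatocyte samples, 4 p16 knockout and 4 p16 wild type, was hybridised to gene arrays. The deposited log2 values come from RMA through the oligo package, per the submitters' processing notes, in versions that those notes do not name. RMA forces the arrays to 1 distribution, which removes changes shared by all genes, and it compresses changes of dim genes.

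Of 41345 rows, 23521 had 1 gene symbol in the platform annotation, 1814 several and 16010 none, and 23328 matched RefSeq by gene identifier. The row of highest mean stood for each of 22180 genes. Genes whose mean exceeded the 40th percentile of row means were fitted with limma 3.58.1 in R 4.3.3 (lmFit, eBayes without trend), with Benjamini-Hochberg adjustment over all 15380, two-sided p and a threshold of 0.05. Differences are knockout minus wild type, with the fit's moderated SE. On simulated data for this comparison the fit called 53.7%, 100% and 100% of genes changed by 0.5, 1 and 2. Of its calls 7.14% were false. The simulation changed 200 of 15380 genes and gave each value independent noise, whereas 2119 genes were called on the real arrays. These rates therefore need not hold for them. Arrays have no read depth, and 4 per group limit the precision.

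The members and lists were chosen with earlier results of these data known. The genes named were the members, the 4 of smallest p among those called in each signalling list, the 3 of smallest p and 2 of highest mean in each marker list, and the 5 nearest profiles, and others are said to be named after their values were seen. Alternatives were other filters, the mean of a gene's rows, median centring, cyclic loess, other variance models, weights per array, a block on the labels' replicate numbers and leaving out each array. Motifs were searched in Python 3.11.15. A called gene of the list with RGS-like domains is not reported here.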

Additional observations from a re-analysis of the deposited data

Results flagged for a closer look

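In 14 of the 150 groups of 4 examined, 1 array stood far from the other 3, where chance gives about 1 in 20 groups. Among the members, Rgs16 had 5.86 in knockout replicate 4, below 6.18 to 6.22 in the other knockout arrays. Rgs14 had 4.35 in knockout replicate 4, above 4.08 in the other 3, which share 1 value. Rgs12 had 3.62 in wild type replicate 3, below 3.92 to 3.94 in the others. Knockout replicate 4 was also the array that lay apart on the principal component described above, and S1pr2 had its lowest knockout value there, 6.27 against 6.41 to 6.42.

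Of the other genes named, those low in wild type replicate 2 were Ednrb at 6.01, Avpr1a at 5.24 and Lyve1 at 7.90. Rgs6 had 3.35 and Ctss 5.08 in wild type replicate 3, each the lowest of its group. Ccl2 had 7.38 in wild type replicate 4, below 7.83 to 7.88, and Abcc9 had 5.51 in wild type replicate 1, the highest of its group. In knockout cells, Asgr1 was at 8.74 in replicate 2 (high), Ttr at 12.95 in replicate 1 (low, by a small margin from 12.98) and Fcer1g at 4.37 in replicate 3 (low). The differences of Rgs16, Rgs14 and Rgs12 without knockout replicate 4 were 1.04, 0.04 and 0.23.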

How the results depend on the processing

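Rgs2, Rgs16, Rgs5, Rgs4 and Rgs3 kept the direction of their differences under every alternative in which they passed the filter. With rows of a gene averaged, the difference of Rgs2 was 1.34 and that of Rgs5 -1.22, each drawn toward a dimmer row, and the ranges over the alternatives were 0.92 to 1.04 for Rgs16, -0.89 to -0.65 for Rgs4 and -0.52 to -0.40 for Rgs3. Between 4 and 5 members passed the threshold when 1 array was left out. With no filter on dim genes, 0 genes with RGS-like domains, 0 effectors, 5 receptors and 1 receptor kinase or arrestin gene were called, and with the filter at the 60th percentile, which tests fewer genes, 2 subunits, 1 effector, 9 macrophage markers, 3 stellate markers and 1 platelet marker. Median centring gave 0, 1 and 1 for RGS-like domains, effectors, and kinases with arrestins. Called subunits numbered 2 under cyclic loess, 3 with an intensity trend and 1 with array weights, and an intensity trend gave 1 effector. Leaving out 1 array gave 1 to 2 calls for the other genes listed with the RGS family, 0 to 1 for RGS-like domains and 0 to 1 for subunits. It gave 0 to 3 calls for effectors, 5 to 9 for receptors and 1 to 3 for kinases and arrestins. The cause was not tested. Differences near 0 changed sign for Alb (-0.0092 under cyclic loess), Nkg7 (-0.0001 with array weights, -0.0503 to 0.18 with 1 array left out) and Gp9 (-0.0542 to 0.14 with 1 array left out). The labels give both groups replicate numbers 1 to 4, but same-numbered samples deviated together with correlations of only 0.02 to 0.26, and 2 of 4 matched best with their own number, so they were not treated as pairs. With the replicate number as a block 2215 genes were called in place of 2119, 1 gene of the kinases and arrestins, and the same number of members (5). The 4 arrays per group, and for dim genes the signal over background, limit what can be seen.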
